A study of Homo sapiens with 6 samples.

Results

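The Kruppel-like factor genes KLF2, KLF3, KLF4, KLF5, KLF6, KLF9, KLF10, KLF11, KLF13 and KLF16 were taken by name from a table of 58302 genes, and all 10 were measured in RNA of MHCC97H cells, a human hepatocellular carcinoma line. The comparison was between a line with the DDX17 gene, which encodes an RNA helicase, knocked out by CRISPR/Cas9 (DDX17_KO, 3 libraries) and a non-target control line made with the same system (control, 3 libraries), with both lines grown in the same serum-containing medium. The labels do not say whether either line is 1 clone, nor whether the libraries came from separate cultures, so the spread behind each p-value is only that between these libraries and may be technical. The values are FPKM, fragments per kilobase of transcript scaled to the depth of the library, so levels can be compared between genes.

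Kruppel-like factors are transcription factors that bind GC-rich and CACCC sequences through zinc fingers at their C terminus, and differ in the cofactors that their N termini recruit. KLF2, KLF4, KLF5 and KLF6 belong to the group that binds histone acetyltransferases such as p300 and mainly activates genes. KLF3 binds the corepressor CtBP, and KLF9, KLF10, KLF11, KLF13 and KLF16 bind the corepressor SIN3A. Several are immediate early or signal-induced genes: KLF2 and KLF4 lie downstream of the kinase ERK5 and MEF2 factors, KLF10 and KLF11 are known as TGF-beta-inducible early genes, and KLF9 responds to glucocorticoids.

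DDX17 itself stood at 45.7, 41.4 and 43.9 FPKM in controls 1, 2 and 3 and at 22.4, 7.64 and 19.1 FPKM in DDX17_KO replicates 1, 2 and 3. Every DDX17_KO library was below every control, and transcript remained in each of them. Its log2 fold change was -1.48 (limma, adjusted p = 0.282), and without DDX17_KO replicate 2 it was -1.04 (adjusted p = 0.0334). DDX17_KO replicate 2 was the library with the least DDX17 and the shallowest, with an estimated 5350000 fragments against 8190000 to 14580000 in the others. Both libraries numbered 2 stood apart from the rest of their group by the GC content of transcripts.

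The sequence before an annotated start is shown for the members whose groups did not overlap (KLF11, KLF13 and KLF6). It is also shown for KLF4 and KLF2, the ERK5-responsive genes of the family. Each run holds the 250 bases before a RefSeq start (GRCh38.p14), written 5′ to 3′ on the strand of the gene. Both KLF11 windows and the KLF4 window lie wholly inside the locus of the gene, and those of KLF6 and KLF2 partly. Such bases may be transcribed from a start further upstream. Capitals mark the E-box CACGTG, the CCAAT box, the core of the cyclic AMP element TGACG and the MEF2 motif, each searched on both strands. The motifs to print were chosen with these sequences in view.
KLF11, upstream start, chr2:10043579-10043828, plus strand: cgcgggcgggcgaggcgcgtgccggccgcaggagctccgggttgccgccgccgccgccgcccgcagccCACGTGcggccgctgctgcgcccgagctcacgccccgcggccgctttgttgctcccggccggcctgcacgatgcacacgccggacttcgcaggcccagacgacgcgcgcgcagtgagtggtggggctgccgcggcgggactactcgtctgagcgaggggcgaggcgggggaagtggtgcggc
KLF11, downstream start, chr2:10043971-10044220, plus strand: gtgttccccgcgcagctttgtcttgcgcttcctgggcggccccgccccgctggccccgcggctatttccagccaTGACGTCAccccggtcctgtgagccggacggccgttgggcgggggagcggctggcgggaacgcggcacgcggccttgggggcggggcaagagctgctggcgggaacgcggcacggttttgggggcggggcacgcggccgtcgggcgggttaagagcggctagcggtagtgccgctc
KLF13, chr15:31326585-31326834, plus strand: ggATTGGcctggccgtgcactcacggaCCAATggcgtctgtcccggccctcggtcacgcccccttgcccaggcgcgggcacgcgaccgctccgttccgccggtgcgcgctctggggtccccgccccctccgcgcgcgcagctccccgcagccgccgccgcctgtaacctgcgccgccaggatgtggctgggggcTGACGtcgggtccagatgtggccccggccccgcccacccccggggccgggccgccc
KLF6, chr10:3785210-3785459, minus strand: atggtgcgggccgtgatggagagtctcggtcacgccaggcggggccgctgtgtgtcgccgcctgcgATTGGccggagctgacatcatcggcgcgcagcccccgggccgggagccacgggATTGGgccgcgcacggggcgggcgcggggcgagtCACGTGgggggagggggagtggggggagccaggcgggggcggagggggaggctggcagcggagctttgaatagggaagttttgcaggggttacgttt
KLF4, chr9:107489770-107490019, minus strand: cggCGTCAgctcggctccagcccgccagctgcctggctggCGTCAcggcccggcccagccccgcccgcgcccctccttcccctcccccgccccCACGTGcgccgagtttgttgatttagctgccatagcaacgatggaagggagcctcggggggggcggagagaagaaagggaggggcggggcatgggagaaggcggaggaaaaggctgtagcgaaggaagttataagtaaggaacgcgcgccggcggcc
KLF2, chr19:16324576-16324825, plus strand: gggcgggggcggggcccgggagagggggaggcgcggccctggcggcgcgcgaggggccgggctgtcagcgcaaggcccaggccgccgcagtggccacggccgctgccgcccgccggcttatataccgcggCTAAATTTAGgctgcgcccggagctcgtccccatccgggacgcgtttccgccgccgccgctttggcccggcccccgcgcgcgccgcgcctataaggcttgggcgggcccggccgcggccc
The table of promoters held 8 of the 10 members. An E-box CACGTG stood before the KLF4 and KLF6 starts and the upstream KLF11 start, where 6.34% of all 35116 promoter windows of this length hold one. In KLF4 and KLF11 the E-box lay inside the locus of the gene. The downstream KLF11 start had the full cyclic AMP element TGACGTCA, 176 bases before the start, a match found in 1.65% of windows. The core TGACG alone was in 21.2% of windows. KLF2 had a match to the MEF2 motif 120 bases before its start, as 2.8% of windows do. Of the windows shown, those of KLF13 and KLF6 held CCAAT, and so did windows of KLF5 and KLF9, not shown. CCAAT was in 32% of all windows. The GC box GGGCGG, not marked, was in every window shown, and in 42.6% of all windows. The windows shown had 69.2% to 80% GC, where the median of all windows was 58%. Of the windows shown, the CACCC box was in that of KLF13, where it overlapped a GC box by 1 base. It was also before the downstream KLF11 start, where it overlapped the cyclic AMP element. The windows of KLF5, not shown, held it as well. The CACCC box was in 54.7% of all windows. The AP-1 motif TGANTCA (6.57% of windows), the TATA box TATAAA (10.7%) and the CArG box (1.16%) had no match in the windows shown. A match describes letters only and shows no binding.

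Of the 10 members, 0 passed the threshold of an adjusted p of 0.05 by limma over all 15620 genes averaging at least 0.5 FPKM, a filter that each of the 10 passed. Among all genes tested, 0.0384% were called in either direction, each of them lower. At an unadjusted p under 0.05, KLF6, KLF11 and KLF13 were lower and 0 members higher, against 7.19% of all genes lower and 6.31% higher. In those 3 genes every DDX17_KO library lay below every control library, where 12.6% of all tested genes did so. No member had every DDX17_KO library above every control, as 8.09% of all genes did, and groups failed to overlap in either direction in 20.7% of genes. DDX17_KO replicates 1 and 3 both lay below every control in 6 members (KLF2, KLF4, KLF6, KLF11, KLF13 and KLF16), against 32.6% of genes, and both above every control in KLF3 and KLF5, against 28.2%. The median log2 fold change over the members was -0.42 with 8 of 10 below 0, beside -0.03 over all genes tested with 52.5% below 0. Without DDX17_KO replicate 2 the median of the members was -0.52, beside -0.05 over all genes tested. With each library adjusted for the GC content and length of transcripts it was -0.13, beside -0.0 over all genes tested. Genes averaging at least 2 FPKM, as every member but KLF2 does, had a median of -0.09 with 58.8% below 0. With 3 libraries against 3 the two-sided exact permutation test cannot give a p below 0.1. Fewer cells with a transcript and less of it in each cell cannot be told apart in these bulk samples.

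**Figure D1:**
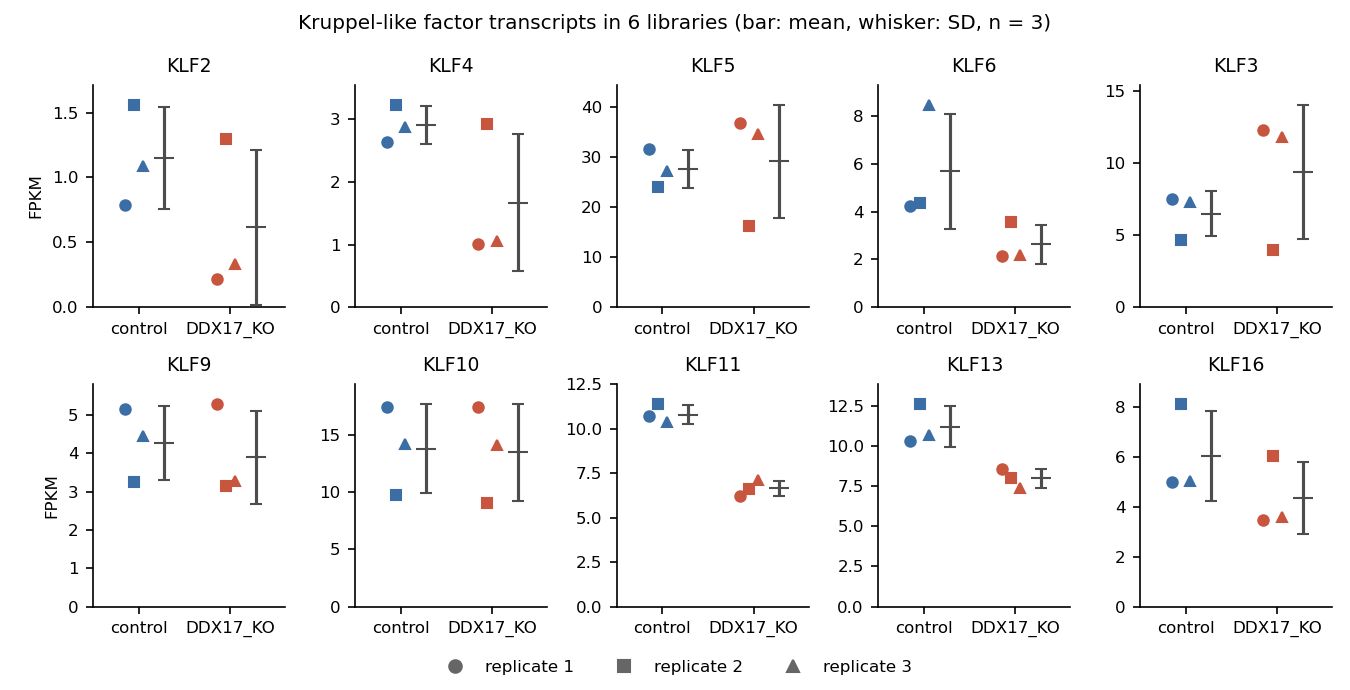
FPKM of each Kruppel-like factor gene (vertical axis, its own scale in each panel, from 0) in the control (blue) and DDX17_KO (red) libraries. Symbols give the replicate number, and the horizontal mark and whisker the mean and SD of 3 libraries. In KLF6, KLF11 and KLF13 the groups do not overlap. In KLF2, KLF3, KLF4, KLF5, KLF6 and KLF16 the square of DDX17_KO replicate 2 stands apart from the other red symbols.

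In the controls KLF5 was the most abundant member, at 27.7 FPKM, and KLF2 the least, at 1.15 FPKM. Between them the means descended from KLF10 through KLF13, KLF11, KLF3, KLF16, KLF6 and KLF9 to KLF4. KLF5 and KLF10, KLF11 and KLF3, KLF9 and KLF4, and KLF4 and KLF2 were neighbours whose 3 control values did not overlap. The other neighbours overlapped, so their order is not resolved. In DDX17_KO, KLF3 came before KLF13 and KLF9 before KLF6. The ranges of neighbours were apart only between KLF13 and KLF11 and between KLF11 and KLF16. Within every DDX17_KO library, however, KLF5 was above KLF10, KLF10 above KLF3, KLF6 above KLF4 and KLF4 above KLF2.

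Among the members that bind p300, KLF6, a ubiquitous factor studied as a growth suppressor in liver, was lower in every DDX17_KO library. KLF6 (ENSG00000067082, chromosome 10, 3775996 to 3785281, build hg38 as for each locus here) had 4.22, 4.37 and 8.47 FPKM in controls 1, 2 and 3 and 2.15, 3.58 and 2.19 FPKM in DDX17_KO replicates 1, 2 and 3. Control replicate 3 was well above the other controls, and DDX17_KO replicate 2 was nearest to the controls. The means were 5.68 ± 2.41 and 2.64 ± 0.814 FPKM (SD, n = 3 each). On the log2 scale the difference was -0.84 (SE 0.28, 95% interval -1.50 to -0.18). After adjustment over all genes p was 0.354 by limma, and the exact permutation p was 0.1. Without control replicate 3 the log2 fold change was -0.56, and without DDX17_KO replicate 2 it was -1.02 (limma, adjusted p = 0.0711).

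KLF4, a factor of epithelial differentiation and one of the reprogramming factors, differed between the groups in DDX17_KO replicates 1 and 3 and not in replicate 2. KLF4 (ENSG00000136826, chromosome 9, 107484852 to 107490482) had 2.63, 3.23 and 2.88 FPKM in controls 1, 2 and 3. It had 1.01, 2.93 and 1.06 FPKM in DDX17_KO replicates 1, 2 and 3, so that replicate 2 lay inside the control range. The log2 fold change over all libraries was -0.62 (95% interval -1.27 to 0.02; limma, adjusted p = 0.371). Without DDX17_KO replicate 2 it was -0.94, and KLF4 was the single member that passed (limma, adjusted p = 0.036). In that setting 3.66% of all genes were called, 1.72% lower and 1.95% higher. The limma adjusted p of KLF4 was 0.0378 without both libraries numbered 2, where 8.81% of all genes were called, 3.3% lower. It ranged from 0.036 to 0.79 over the 19 other settings.

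KLF2, a factor best known from the response of endothelium to flow, showed the same arrangement at a lower level. KLF2 (ENSG00000127528, chromosome 19, 16324817 to 16327874) had 0.785, 1.56 and 1.09 FPKM in controls 1, 2 and 3 and 0.219, 1.30 and 0.330 FPKM in DDX17_KO replicates 1, 2 and 3. DDX17_KO replicates 1 and 3 lay below every control and replicate 2 inside their range. Taking its longest annotated transcript, 2018 bases, KLF2 rested on about 5 fragments in DDX17_KO replicate 1, 14 in replicate 2 and 5 in replicate 3, and on about 20, 44 and 32 in the controls. Its log2 fold change was -0.45 (95% interval -1.10 to 0.19; limma, adjusted p = 0.442). On this scale, which adds 1 to each FPKM, the estimate for so low a gene depends on the number added. With a pseudocount of 0.01 it was -1.25 (95% interval -2.88 to 0.38; limma, adjusted p = 0.424). The ratio of the mean FPKM, DDX17_KO over control, was 0.539. Leaving out DDX17_KO replicate 2, on the original scale, gave -0.74 (limma, adjusted p = 0.066). With all 6 libraries adjusted for the GC content and length of transcripts, the estimate was -0.10 (limma, adjusted p = 0.792).

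KLF5, a growth-promoting factor of epithelia, had the highest level and the smallest log2 difference between the groups. KLF5 (ENSG00000102554, chromosome 13, 73054976 to 73077542) stood at 31.7, 24.1 and 27.3 FPKM in controls 1, 2 and 3. DDX17_KO replicates 1 and 3, at 36.8 and 34.7 FPKM, lay above every control, and replicate 2, at 16.2 FPKM, below every control. The log2 fold change of 0.00 carried a 95% interval of -0.74 to 0.74 (limma, adjusted p = 0.999). The interval leaves room for a sizeable change in either direction, and leaving out DDX17_KO replicate 2 gave 0.36.

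KLF3, the CtBP-binding repressor of the set, had the same arrangement as KLF5. KLF3 (ENSG00000109787, chromosome 4, 38664196 to 38701042) had 7.52, 4.70 and 7.28 FPKM in controls 1, 2 and 3 and 12.3, 3.99 and 11.8 FPKM in DDX17_KO replicates 1, 2 and 3. Replicates 1 and 3 of DDX17_KO were above every control and replicate 2 below every control, as in 4.44% of all tested genes. In log2 units DDX17_KO minus control was 0.36 (95% interval -0.55 to 1.28; limma, adjusted p = 0.638). Without both libraries numbered 2 it was 0.64 and KLF3 passed as higher (limma, adjusted p = 0.0396), in a setting that called 8.81% of all genes, 5.51% higher and 3.3% lower. Without DDX17_KO replicate 2 alone it was 0.82 with an adjusted p of 0.0668.

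Among the members that bind SIN3A, KLF11 was lower in DDX17_KO with little spread in either group. KLF11 (ENSG00000172059, chromosome 2, 10042849 to 10054836), which encodes a repressor induced by TGF-beta, stood at 10.7, 11.4 and 10.4 FPKM in controls 1, 2 and 3. In DDX17_KO replicates 1, 2 and 3 it stood at 6.25, 6.62 and 7.10 FPKM. The lowest control was well above the highest DDX17_KO library, and the libraries numbered 2 did not stand apart. The means were 10.8 ± 0.522 and 6.66 ± 0.423 FPKM (SD, n = 3 each), a ratio of 0.616. The log2 fold change was -0.62 (SE 0.16, 95% interval -1.0 to -0.25). By limma the adjusted p was 0.298, the lowest of the 10 members, the unadjusted p 0.0053 and the exact permutation p 0.1. Over the 19 other settings the log2 fold change of KLF11 stayed between -0.70 and -0.58. KLF11 passed in 1 of them, without both libraries numbered 2, at a limma adjusted p of 0.0484. That setting called 8.81% of all genes, 3.3% lower.

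KLF13, a factor known from the control of chemokine genes in T cells, was also lower in every DDX17_KO library. KLF13 (ENSG00000169926, chromosome 15, 31326855 to 31435665) had 10.3, 12.6 and 10.7 FPKM in controls 1, 2 and 3 and 8.55, 8.01 and 7.39 FPKM in DDX17_KO replicates 1, 2 and 3. The gap between the groups was narrower than in KLF11. The means were 11.2 ± 1.27 and 7.98 ± 0.583 FPKM (SD, n = 3 each). On the log2 scale the difference was -0.44 (95% interval -0.84 to -0.04; limma, adjusted p = 0.369), and the exact permutation p was 0.1. With each library adjusted for the GC content and length of transcripts it was -0.27, with an interval from -0.56 to 0.01.

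KLF16 (ENSG00000129911, chromosome 19, 1852399 to 1863568), a GC-box-binding repressor, had 4.99, 8.14 and 5.03 FPKM in controls 1, 2 and 3. It had 3.46, 6.05 and 3.61 FPKM in DDX17_KO replicates 1, 2 and 3. Both libraries numbered 2 were the highest of their group, and the DDX17_KO library was 0.694, 0.743 and 0.717 of the control library with the same number. In log2 units DDX17_KO minus control was -0.40 (95% interval -1.0 to 0.21; limma, adjusted p = 0.467). After the correction for GC content and length it was -0.04, with an interval from -0.39 to 0.32, and leaving out DDX17_KO replicate 2 instead gave -0.61 (limma, adjusted p = 0.112).

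KLF10 and KLF9 had overlapping groups. KLF10 (ENSG00000155090, chromosome 8, 102648779 to 102655902), the other TGF-beta-inducible member, stood at 17.5, 9.77 and 14.2 FPKM in controls 1, 2 and 3 and at 17.5, 9.06 and 14.1 FPKM in DDX17_KO replicates 1, 2 and 3. The libraries with the same number were close to each other, at ratios of 0.997, 0.928 and 0.990, while the numbers differed within each group. Its log2 fold change was -0.04 (95% interval -0.73 to 0.65; limma, adjusted p = 0.953). KLF9 (ENSG00000119138, chromosome 9, 70384597 to 70414624) stood at 5.15, 3.24 and 4.45 FPKM in controls 1, 2 and 3 and at 5.29, 3.14 and 3.27 FPKM in DDX17_KO replicates 1, 2 and 3. Replicate 1 was the highest and replicate 2 the lowest in both groups. KLF9 has a single annotated transcript, so its values convert to fragments, with the fewest, 87, in DDX17_KO replicate 2 and the most, 336, in control replicate 3. Its log2 fold change was -0.12 (95% interval -0.67 to 0.43; limma, adjusted p = 0.811).

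**Figure D2:**
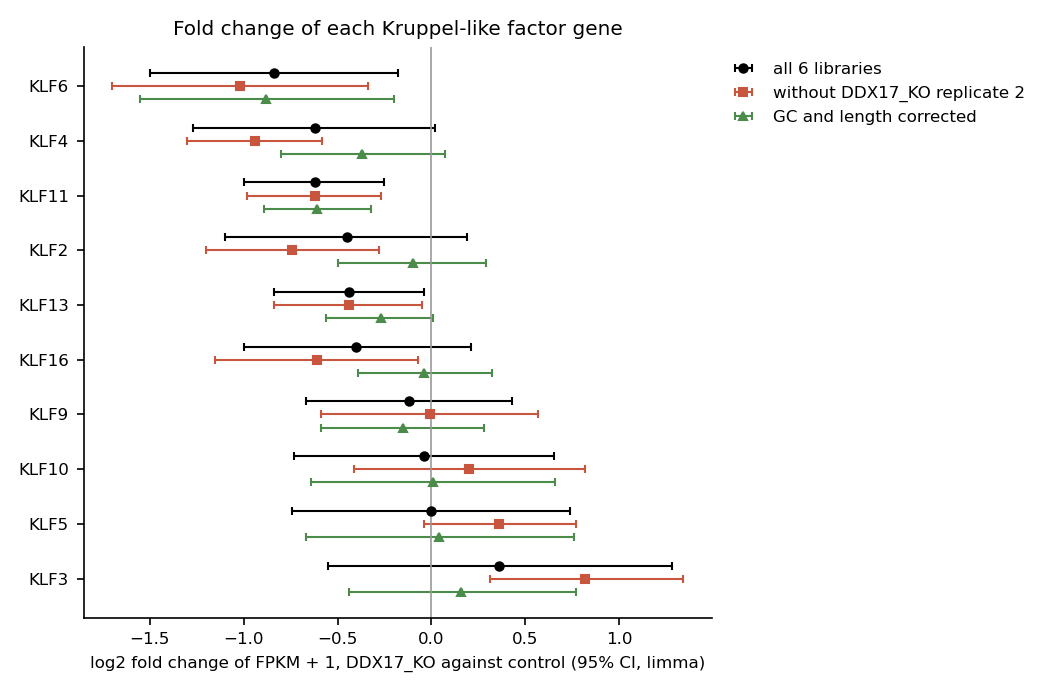
Log2 fold change of FPKM + 1 in DDX17_KO against control (horizontal axis) for each member, with 95% confidence intervals from limma. Black circles use all 6 libraries, red squares leave out DDX17_KO replicate 2, and green triangles adjust each library for the GC content and length of transcripts. KLF11 has nearly the same estimate in the 3 fits, at -0.62, -0.62 and -0.61, while KLF16 moves from -0.40 to -0.04 with the correction.

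The libraries numbered 2 differed from the rest of their group along the GC content of transcripts. Over all tested genes, Spearman's rho between a library's deviation from its group mean and transcript GC content came to 0.584 in the control library numbered 2 and 0.533 in its DDX17_KO counterpart, and to between -0.534 and -0.320 in the other libraries. These are values across genes, which are not independent replicates. Deviations from a group mean cancel out within the group, so the negative values are not an observation separate from the positive ones. KLF3, with a GC content of 41.5%, was lower in replicate 2 than the mean of replicates 1 and 3 by 0.56 log2 units in the controls and 1.39 in DDX17_KO. KLF16, at 67.8% the most GC-rich member, was higher in replicate 2 by 0.60 and 0.64 log2 units. KLF2, at 65.2%, was higher by 0.41 in the controls and 0.85 in DDX17_KO. Not every member followed this order. KLF6, at 45.9% GC, was lower in control replicate 2 by 0.39 log2 units and higher in DDX17_KO replicate 2 by 0.53. KLF13, at 57.6%, was higher by 0.25 in the controls and by 0.01 in DDX17_KO. KLF11, at 46.8%, was higher by 0.10 in the controls and lower by 0.01 in DDX17_KO. At a similar GC content KLF5, KLF10 and KLF9 were lower, by 0.28, 0.64 and 0.45 in the controls and by 1.09, 0.73 and 0.32 in DDX17_KO. KLF4, at 55%, was higher by 0.17 in the controls and by 0.95 in DDX17_KO.

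**Figure D3:**
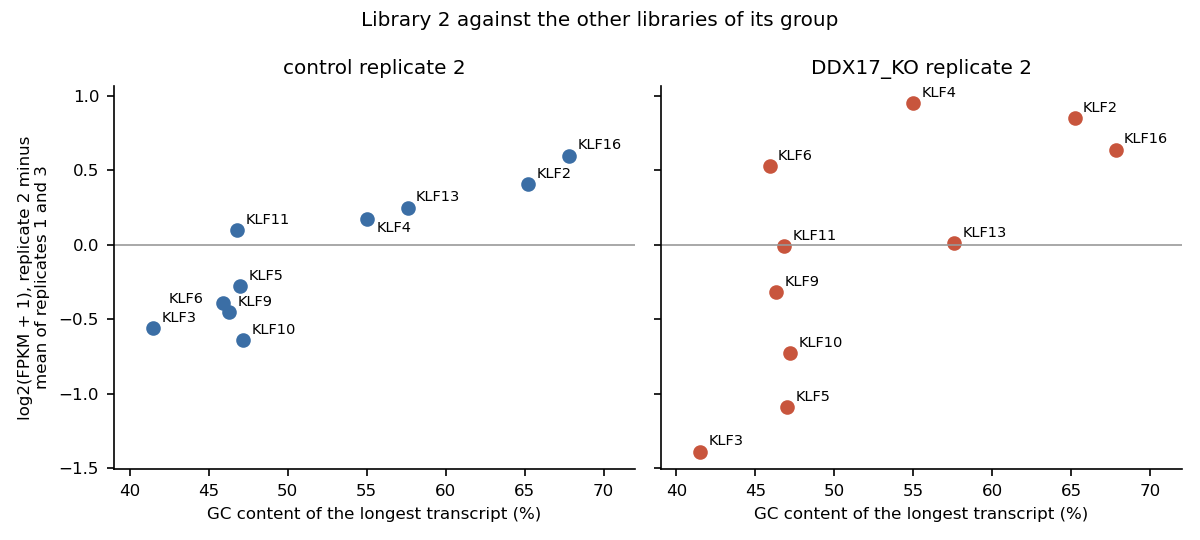
Difference on the log2(FPKM + 1) scale between replicate 2 and the mean of replicates 1 and 3 (vertical axis) against the GC content of the longest transcript (horizontal axis) for the 10 members, in control (left) and DDX17_KO (right). The values run from -0.64 for KLF10 to 0.60 for KLF16 in the controls and from -1.39 for KLF3 to 0.95 for KLF4 in DDX17_KO.

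After the adjustment for GC content and length, KLF6 kept a log2 fold change of -0.88 and KLF11 of -0.61, with limma adjusted p of 0.247 and 0.176. The estimates of KLF4 and KLF3 were -0.37 and 0.16, and that of KLF2 was -0.10. The median over the members was -0.13 after the correction. The adjusted values called 0.0704% of all genes (0.0064% higher and 0.064% lower) and 0 members. Leaving out DDX17_KO replicate 2 as well, the estimates were -1.11 for KLF6, -0.62 for KLF11, -0.56 for KLF4 and 0.46 for KLF3, with adjusted p of 0.075, 0.0574, 0.0574 and 0.0854 by limma and 0 members called, where 1.86% of all genes were called, 0.915% higher and 0.941% lower. What part the GC-related difference between libraries has in each member's estimate was not tested. The correction also removes any difference between the groups that runs with GC content or length. It cannot tell such a difference apart from one between libraries.

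Compared with the control of the same number, the DDX17_KO library was lower in 3 of 3 comparisons for KLF2, KLF4, KLF6, KLF10, KLF11, KLF13 and KLF16, 7 of the 10 members, where 27.5% of all tested genes were. No member was higher in 3 of 3, where 26.2% of genes were. The size differed between the numbers. For KLF4 the ratio was 0.384, 0.907 and 0.370 for numbers 1, 2 and 3, for KLF2 it was 0.279, 0.835 and 0.303, and for KLF6 it was 0.510, 0.819 and 0.258. In these 3 genes number 2 had the smallest difference. For KLF11 the ratio was 0.586, 0.582 and 0.685, and for KLF10 it was near 1, at 0.997, 0.928 and 0.990. Blocking on the replicate number gave adjusted p of 0.0718 by limma for KLF11, 0.110 for KLF16 and 0.114 for KLF13, and 0 members passed, where the block called 0.0256% of all genes, each lower. With each library adjusted for GC content and length, KLF6, KLF11 and KLF13 were still lower in 3 of 3. KLF2 and KLF4 were then higher in DDX17_KO replicate 2 than in control replicate 2, at 1.09 against 0.964 and 2.65 against 2.48 FPKM. KLF10 was higher in numbers 1 and 3 (17.9 against 17.0 and 14.2 against 13.8), and KLF16 in number 3 (4.77 against 4.5).

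Of the 8 other Kruppel-like factors, 3 reached the filter and 0 passed the test. KLF12, a CtBP-binding repressor, had 1.6, 0.614 and 1.27 FPKM in controls 1, 2 and 3 and 3.50, 0.857 and 3.21 FPKM in DDX17_KO replicates 1, 2 and 3. Its log2 fold change was 0.63 (limma, adjusted p = 0.428). Leaving out DDX17_KO replicate 2 gave 1.04 (limma, adjusted p = 0.0554), and the adjustment for GC content and length gave 0.20. KLF12 stood high in the same DDX17_KO libraries as KLF3, its relative in the CtBP group, and low in both libraries numbered 2, at a GC content of 38.8%. KLF17, with a mean of 1.89 FPKM over the 6 libraries, had a log2 fold change of -0.24, which was -0.08 without DDX17_KO replicate 2. KLF7 had 0.13, which was 0.28 without that library and -0.11 after the adjustment. KLF1, the erythroid member, was listed at 0 in every library, and KLF8, KLF14, KLF15 and KLF18 did not exceed 0.323 FPKM in any.

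The related SP factors, which bind the same GC boxes, had 5 tested members of 9, with 3 below 0, 2 above 0 and 0 called. SP1, the most abundant, had 26.6, 17.9 and 27.7 FPKM in controls 1, 2 and 3 and 24.1, 16.4 and 22.7 FPKM in DDX17_KO replicates 1, 2 and 3. SP3, the next, had a log2 fold change of 0.45, and of 0.16 after the adjustment. The median over the SP factors was -0.18, and it was -0.02 without DDX17_KO replicate 2 and turned to 0.05 after the adjustment.

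Cofactors of the family showed 7 of 11 tested genes below 0, 4 above 0, 0 called and a median log2 fold change of -0.04. HDAC1, a histone deacetylase of the SIN3 complex and the most abundant of them, had a log2 fold change of -0.04. EP300, which encodes p300 and came next, had -0.16, with 11.6, 9.91 and 12.5 FPKM in controls 1, 2 and 3 and 8.98, 8.69 and 12.7 FPKM in DDX17_KO replicates 1, 2 and 3. Groups overlapped in both genes. Without DDX17_KO replicate 2 HDAC1 had -0.24 and EP300 -0.07, and after the adjustment HDAC1 turned to 0.04. SIN3B and HDAC3, named after their values were seen, had every DDX17_KO library below every control, at -0.33 and -0.23, and after the adjustment at -0.08 and -0.02.

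Genes of the ERK5 and MEF2 axis, upstream of KLF2 and KLF4, had 3 of 6 tested members below 0, 3 above 0, 0 called and a median of -0.02, which was -0.08 without DDX17_KO replicate 2 and 0.11 after the adjustment. MAP3K2, a kinase at the head of this cascade, had a log2 fold change of 0.83 (limma, adjusted p = 0.378). At a GC content of 35.4%, it had 1.15 without DDX17_KO replicate 2 and 0.38 after the adjustment. MEF2D had -0.07, and 0.11 after the adjustment. Ubiquitin ligases that act on Kruppel-like factor proteins had 2 of 7 tested genes below 0, 5 above 0, 0 called and a median of 0.33, which was 0.56 without DDX17_KO replicate 2 and 0.22 after the adjustment. WWP1, a ligase of KLF5 and the most abundant of these, had 11.4, 5.63 and 10.5 FPKM in controls 1, 2 and 3 and 16.8, 7.25 and 18.6 FPKM in DDX17_KO replicates 1, 2 and 3, a log2 fold change of 0.54 with overlapping groups. SMURF2 had 0.31, also with overlapping groups. Without DDX17_KO replicate 2 WWP1 had 0.93 and SMURF2 0.63, and after the adjustment they had 0.30 and 0.04. The groups did not overlap in VHL and SMURF1, which were named after their values were seen. VHL, the von Hippel-Lindau gene, had 3.45, 4.24 and 3.39 FPKM in controls 1, 2 and 3 and 7.17, 7.97 and 5.67 FPKM in DDX17_KO replicates 1, 2 and 3, a log2 fold change of 0.75 (limma, adjusted p = 0.283) and of 0.80 after the adjustment. SMURF1 was lower in every DDX17_KO library, at -0.26 (limma, adjusted p = 0.469).

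In the glucocorticoid list, 4 of 5 tested genes lay below 0, 1 above 0 and 0 were called. The median was -0.27, with -0.35 without DDX17_KO replicate 2 and -0.22 after the adjustment. NR3C1, the glucocorticoid receptor, was the gene above 0, at a log2 fold change of 0.92, with 1.27 without DDX17_KO replicate 2 and 0.60 after the adjustment. SGK1 had -0.37, and -0.59 after the adjustment. PER1, a clock gene named after its values were seen, had every DDX17_KO library below every control, at -0.51, and -0.22 after the adjustment.

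Among textbook target genes of the family, 8 of 11 tested members lay below 0 and 3 above 0. Of them 1 was called, where 0.0384% of all tested genes were. The list was chosen with earlier results of these data known, so this count is a description and no test. EDN1, the endothelin 1 gene and known as a gene repressed by KLF2, fell, at 24.5, 25.4 and 23.1 FPKM in controls 1, 2 and 3 and 6.53, 7.08 and 8.09 FPKM in DDX17_KO replicates 1, 2 and 3. Its log2 fold change was -1.63 (limma, adjusted p = 0.0442), and DDX17_KO replicate 2 lay with the other DDX17_KO libraries. The list had a median of -0.42, which was -0.59 without DDX17_KO replicate 2 and -0.22 after the adjustment. ENG, the endoglin gene and also named after its values were seen, had every DDX17_KO library below every control, at -0.59, and -0.25 after the adjustment. SMAD7, an inhibitor of TGF-beta signalling, had 6.8, 8.87 and 6.88 FPKM in controls 1, 2 and 3 and 3.0, 8.61 and 3.03 FPKM in DDX17_KO replicates 1, 2 and 3, the arrangement seen in KLF4. Without DDX17_KO replicate 2 it passed as lower (limma, adjusted p = 0.0359), as did EDN1 (adjusted p = 0.0211). That setting called 3.66% of all genes, 1.72% lower. SMAD7 was named after its values were seen.

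**Figure D4:**
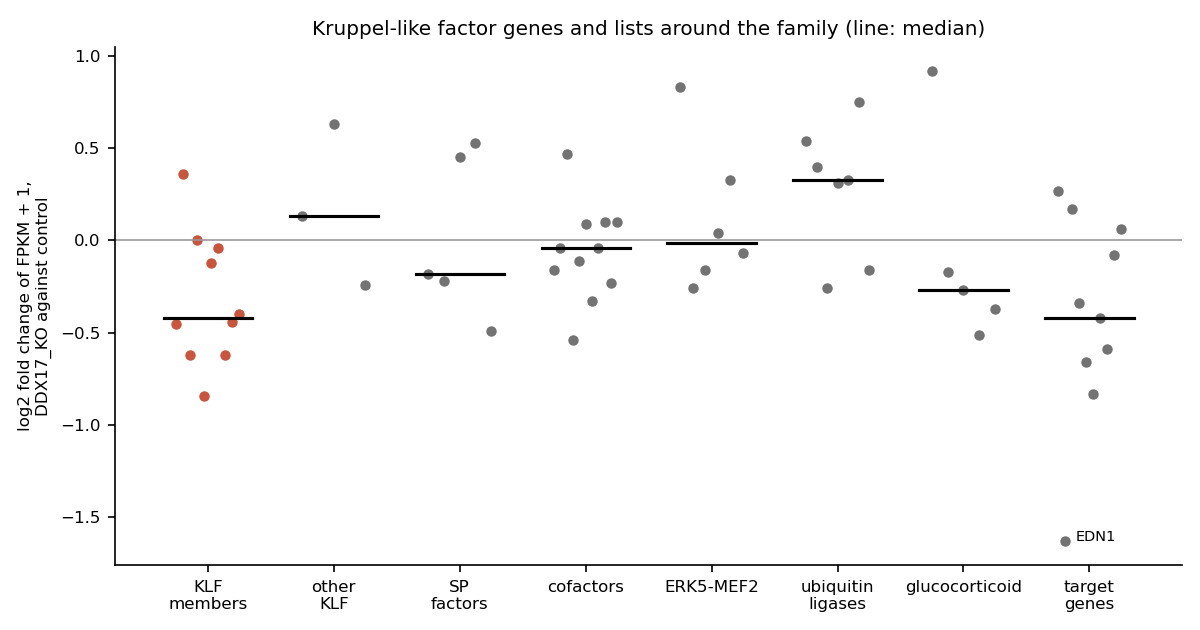
Log2 fold change of FPKM + 1 in DDX17_KO against control (vertical axis) for tested genes of each list, 1 point a gene, with the median of all tested genes of the list as a line. The members (red) have a median of -0.42, the target genes -0.42 and the ubiquitin ligases 0.33, and EDN1, at -1.63, is the lowest point drawn.

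The genes most alike to each member over the 6 libraries were found among 5791 genes averaging at least 5 FPKM, by the root mean square difference of centred log2(FPKM + 1). KLF11 was closest to LATS2, a Hippo pathway kinase gene, at 0.054 log2 units, and to CHSY1. LATS2 had 14.4, 14.3 and 14.1 FPKM in controls 1, 2 and 3 and 8.57, 8.40 and 10.0 FPKM in DDX17_KO replicates 1, 2 and 3. KLF13 was closest to LAS1L and ZMYM3, KLF4 to RNPEP and TYSND1, KLF2 to POP7 and PIAS4, and KLF16 to AAMP and TRAP1. KLF3 was closest to MTMR12 and the long noncoding RNA NORAD, KLF5 to TMEM167A and TRIO, KLF9 to MND1 and FBXO45, and KLF10 to DYM and PPP1CB. KLF6 had the most distant neighbours, XBP1 at 0.180 log2 units and the pseudogene RNPS1P1 at 0.216, whose fragments may be shared with its parent gene. XBP1, a transcription factor gene of the unfolded protein response, had 11.3, 13.7 and 20 FPKM in controls 1, 2 and 3 and 8.56, 9.81 and 8.63 FPKM in DDX17_KO replicates 1, 2 and 3. As in KLF6, control replicate 3 was the highest. With 6 libraries and this many genes, close neighbours arise readily, and no test was made.

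Markers of other cell types were checked in the same table. The hepatocyte markers, 8 genes including ALB, summed to 0.734 to 0.957 FPKM in controls and to 0 in each DDX17_KO library, with 0 of 8 reaching the filter, so the defining markers of differentiated hepatocytes were near absent from this liver cancer line. Markers of endothelium, the tissue in which KLF2 is best known, summed to 0.881 to 0.993 FPKM in controls and 0.323 to 0.629 FPKM in DDX17_KO over 8 genes, with 0 of 8 reaching the filter and EMCN listed at 0 throughout. Red cell markers summed to 54.0 to 69.6 FPKM in controls and 0.0211 to 0.673 FPKM in DDX17_KO. Of these 8 markers 3 were tested and 3 called lower, all 3 of them globin genes, where 0.0384% of all tested genes were called lower. The marker lists, too, were chosen with earlier results of these data known, so this count is no test. Fibroblast markers summed to 40.2 to 48.6 FPKM in controls and 50.5 to 92.0 FPKM in DDX17_KO, with 5 of 8 tested and 0 called. Members of this list lay on both sides of 0: COL3A1 had 20.7, 25.6 and 20.5 FPKM in controls 1, 2 and 3 and 79.8, 27.2 and 33.5 FPKM in DDX17_KO replicates 1, 2 and 3, while COL1A1 (-0.70) and PDGFRB (-0.47) had every DDX17_KO library below every control. COL1A1 passed as lower without DDX17_KO replicate 2 (limma, adjusted p = 0.0449), as 1.72% of all tested genes did. Leukocyte markers summed to 2.07 to 2.62 and 2.42 to 3.74 FPKM, with 1 of 8 tested, 0 called and CD3E at 0. The part of these cell types in the members' values was not tested.

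Other genes overlap the loci of KLF3, KLF11, KLF13 and KLF16 in the table, and none of them exceeded 0.144 FPKM in any library. Levels are per gene, so isoforms of the members cannot be read from them.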

How the data were processed

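RNA of 6 libraries was measured, 3 control and 3 DDX17_KO, grouped and numbered by their titles. A single gene-level table in FPKM was deposited by the authors. Per the submitters' processing notes, the build was among the names given (hg38), as were StringTie, HISAT2, edgeR and CASAVA 1.8, with no role stated for any of them. For the gene annotation and strandedness, the sources used here are silent. FPKM as the unit was inferred from the numbers themselves: for genes with 1 transcript in GENCODE release 29, 99.4% to 99.7% of values up to 20 fragments lay within 0.05 of a whole fragment, and the step gave 5350000 to 14580000 estimated fragments per library. The floor that depth sets covers counting error only.

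Group differences in log2(FPKM + 1) were tested two-sided with limma (version 3.58.1, R version 4.3.3, variance trend on the mean), with Benjamini-Hochberg adjustment over 15620 genes, a threshold of 0.05 and no covariates. The exact permutation test ran over 20 arrangements of the libraries. The fit was tested on simulated data with independent noise in each gene and library. The simulation held no shift shared by the genes of a library, so it does not cover the GC-related difference between libraries. Tables were handled in pandas 2.3.3 under Python 3.11.15. GC content and length were those of the longest GENCODE transcript, and the correction used splines with 4 degrees of freedom for each. The splines were fitted to the difference of each library from the mean of all 6 libraries, with no term for the group. The promoters came from RefSeq (GRCh38.p14).

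The members, the 7 lists around the family and the 5 marker lists were chosen with earlier results of these data known. The genes named were the members, DDX17, from each list the members past the threshold or else the 2 most abundant, and the 2 genes most alike to each member; KLF7 and other genes beyond that rule were picked with their values in view. 1 target gene is included in the totals of its list and is not reported here. The replicate numbers come from the titles. The correlation across genes of same-numbered deviations from the group means was 0.3, 0.546 and 0.214 for numbers 1, 2 and 3, so the numbers were treated as pairing the libraries in a fit with a replicate block, beside the fit without it. The differently numbered pair of control 1 and DDX17_KO 3 reached 0.329. The alternatives numbered 19, of which 1 was added after seeing the data.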

Additional observations from a re-analysis of the deposited data

How the results depend on the processing

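Of the 10 members, 0 were called in either direction in 17 of the 19 other settings. The exceptions were 1 lower (KLF4) without DDX17_KO replicate 2, and 2 lower (KLF4 and KLF11) with 1 higher (KLF3) without both libraries numbered 2. KLF2, KLF3, KLF4, KLF6, KLF11, KLF13 and KLF16 kept their direction in every setting run, and KLF2 was not tested under the filter of 2 FPKM. KLF10, at -0.04, turned to 0.01 with median-of-ratios scaling, 0.02 with quantile normalization, 0.01 with the GC and length correction, 0.01 with that correction and the replicate block, and 0.25 with that correction without DDX17_KO replicate 2, and with single libraries left out it ran from -0.25 to 0.20. KLF5, at 0.00, was -0.00 with pseudocounts of 0.1 and 0.01 and ran from -0.20 to 0.36 with single libraries left out. KLF9 ran from -0.31 to 0.00 in the same way. Over all genes, 0 were higher and 6 lower. With single libraries left out the counts ran from 0 to 304 higher and from 3 to 268 lower, the highest without DDX17_KO replicate 2. They were 860 higher and 516 lower without both libraries numbered 2, 1 and 10 with the GC and length correction, and 143 and 147 with that correction without DDX17_KO replicate 2. Without a filter 3 were lower. The replicate block changed no member's call and gave 0 genes higher and 4 lower. The cause of these shifts was not tested. Depth limits KLF2, which rests on about 5 fragments in the lowest libraries.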
